A study of Mus musculus with 9 samples.

Results

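The DNA replication and S-phase genes described here are 41 mouse genes listed by symbol, whose products license replication origins, build and fire the replicative helicase, copy DNA, supply nucleotides and histones, or control entry into S phase. They were taken as the rows of the deposited expression table that carry these symbols. Of the 41, 39 have a row among the 18329 genes of the table, and all 39 passed the filter on low values (at least 1 CPM in at least 3 libraries), as did 16143 genes in all. Gins3 and Ccne1 are not analysed here.

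The RNA came from neuroglial progenitor cells of the TVZ, the germinal zone along the third ventricle, taken from untreated mice on postnatal day 1. All mice carried Nestin-CFPnuc, a transgene in which the Nestin promoter drives a cyan fluorescent protein (CFP), on a C57/BL6 background. Sorting by CFP and by CD133, a surface protein whose gene is Prom1, gave 3 populations with 3 libraries each: CD133+Nestin+, Nestin+ and CD133+. CFP stands for promoter activity and not for Nestin protein, and whether the single-marker sorts excluded cells with the second marker is not in the labels. Each population was sorted under the numbers 1, 2 and 3, which equal the passage number in the labels, and no label ties a library to its own animal or culture, so p-values cover only the spread between samples, possibly a technical one. The comparisons between populations address molecular differences between isolated progenitors, and those between sort numbers compare libraries that carry different numbers within a population. Sort and passage share these numbers and cannot be told apart in any comparison of sort numbers.

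DNA replication begins with licensing in G1: the origin recognition complex, Cdc6 and Cdt1 load the Mcm2 to Mcm7 ring onto DNA. At the start of S phase Mcm10, Cdc45 and the GINS complex turn the ring into a moving helicase, and polymerases, the clamp Pcna and its loader copy both strands behind it. E2F transcription factors, held back by the retinoblastoma protein until cyclin E and its kinase release them, are known to drive many of these genes, and in the neonatal ventricular zone their transcripts are used to tell cycling progenitors from cells that have left the cycle.

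The promoters of these genes are shown because E2F binding sites near the start are what much of the family is known for. RefSeq promoter windows (GRCm38.p6, 250 bases before to 50 bases after an annotated start) were found for 33 of the 41 genes. The genes with no entry were Mcm4, Gins1, Gins2, Gins4, Prim2, Pole, Ccne2 and Tipin. The E2F consensus was searched as TTTCCCGC, TTTCGCGC, TTTGCCGC and TTTGGCGC on both strands. At least 1 match stood in a window of 14 of the 33 genes (42.4%), against 2.6% of 27025 genes with a window and 4.54% of the 11210 that are also in the expression table. CCAAT, searched on both strands, was found for 20 of the 33 (60.6%), against 41.1% of all genes with a window. In the stretches below, written 5′ to 3′ on the strand of the gene, capitals mark E2F consensus matches and CCAAT or its reverse complement ATTGG, and in Mcm5 and Mcm6 a pair of E2F matches on opposite strands overlap. The first 5 belong to licensing genes, and Pcna and Chaf1a are shown because their transcripts differed between libraries while their windows hold CCAAT and no E2F match.
Mcm5, chr8:75109336-75109387, plus strand: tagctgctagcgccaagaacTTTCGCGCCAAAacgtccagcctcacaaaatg
Mcm6, chr1:128359725-128359835, minus strand: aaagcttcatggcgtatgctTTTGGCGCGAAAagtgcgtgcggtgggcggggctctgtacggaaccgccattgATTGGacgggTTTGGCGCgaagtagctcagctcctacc
Mcm7, chr5:138172021-138172068, minus strand: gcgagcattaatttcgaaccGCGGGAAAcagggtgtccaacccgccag
Mcm3, chr1:20820265-20820294, minus strand: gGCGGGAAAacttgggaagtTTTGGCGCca
Orc1, chr4:108579407-108579453, plus strand: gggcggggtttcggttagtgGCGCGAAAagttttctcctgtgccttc
Pcna, chr2:132253243-132253287, minus strand: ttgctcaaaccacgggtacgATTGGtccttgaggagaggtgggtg
Chaf1a, chr17:56040315-56040359, plus strand: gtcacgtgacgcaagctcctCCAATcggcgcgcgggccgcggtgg

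The share with a match differed in size between roles. Among licensing genes with a window 7 of 9 held an E2F match, and among the 4 nucleotide supply genes (Rrm1, Rrm2, Tyms and Tk1) 0 did. The 20 matches began between 185 bases before and 40 bases after a start, and 12 of them lay within 50 bases of it. A match is a run of letters and not a measured binding site, and a window without one says nothing about E2F at that gene.

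**Figure D1:**
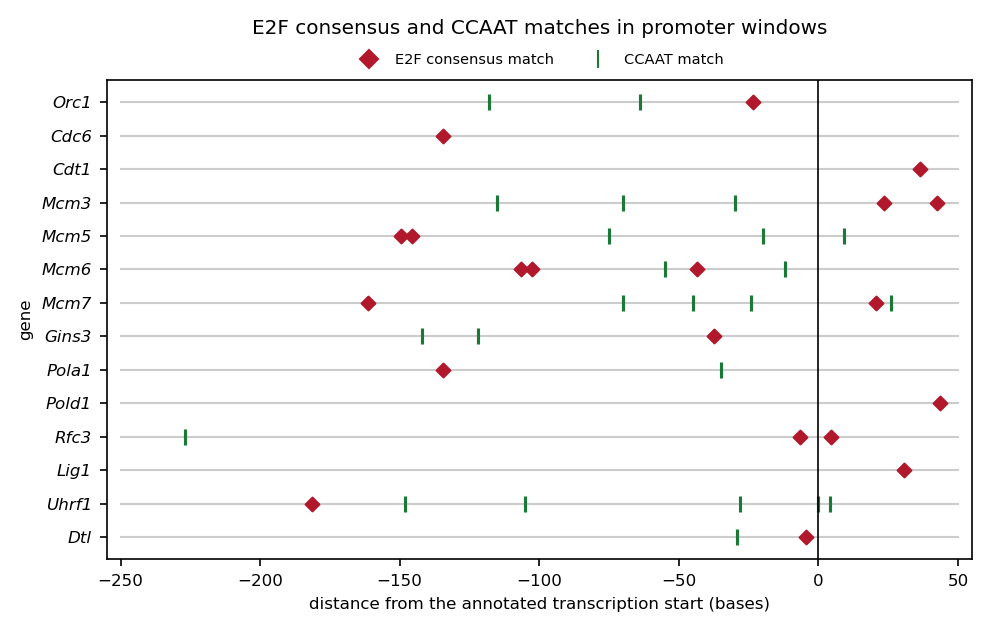
Each row is 1 of the 14 genes with an E2F consensus match in a promoter window; diamonds mark E2F matches and vertical ticks CCAAT matches, at their distance in bases from the annotated start of the window that holds them (genes with several starts share a row). Matches lie on both sides of the start, and Mcm6 has 3.

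Across the 9 libraries 1 read was estimated at 0.0286 to 0.0344 CPM (reads scaled to the total of a library, a unit inferred from the values that no source states). The listed genes took up 87.3% to 87.6% of that total in the number 1 libraries, 66.0% to 77.7% in number 2 and 77.6% to 81.0% in number 3. The sort markers stood where the labels put them: Prom1 was at 116 to 181 CPM in CD133+Nestin+, 39.3 to 58.1 in Nestin+ and 146 to 182 in CD133+ libraries, and Nes at 172 to 212, 157 to 195 and 39.5 to 57.3 CPM. The CD133+Nestin+ number 2 library stood apart with the lowest value of the 9 for 33.2% of all genes tested. The CD133+ libraries also held transcripts of other cells. The 10 microglial markers summed to 41.5 to 326 CPM in CD133+Nestin+, 37.3 to 108 in Nestin+ and 966 to 2780 in CD133+ libraries. The 4 endothelial markers summed to 26.9 to 35.6, 14.5 to 24.7 and 330 to 648 CPM in the same order. Sums over 10 neural stem and radial glial markers were 4355 to 10800, 9014 to 16970 and 2397 to 7371 CPM. These lists hold only markers that passed the filter on low values, which the libraries of 1 population alone can meet. None of those markers was at 0 in all 3 libraries of any population, which does not show that each cell type was present in each. In bulk RNA, fewer cells of a type and less RNA per cell cannot be told apart.

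Every one of the 39 genes was detected in every library, so replication transcripts were present in all 3 populations. Their summed level was 1645, 942 and 1400 CPM in CD133+Nestin+ libraries 1, 2 and 3, 1747, 1406 and 984 CPM in Nestin+ libraries, and 1253, 1024 and 1233 CPM in CD133+ libraries. The ranges overlap, and in each population the libraries lay further apart than the population means of 1329, 1379 and 1170 CPM. Nestin+ number 1 held the highest value of the 9 for 18 of the 39 genes (46.2%), where it did so for 12.5% of all genes tested. CD133+Nestin+ number 2 held the lowest value for 15 of the 39 (38.5%), near its share over all genes.

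**Figure D2:**
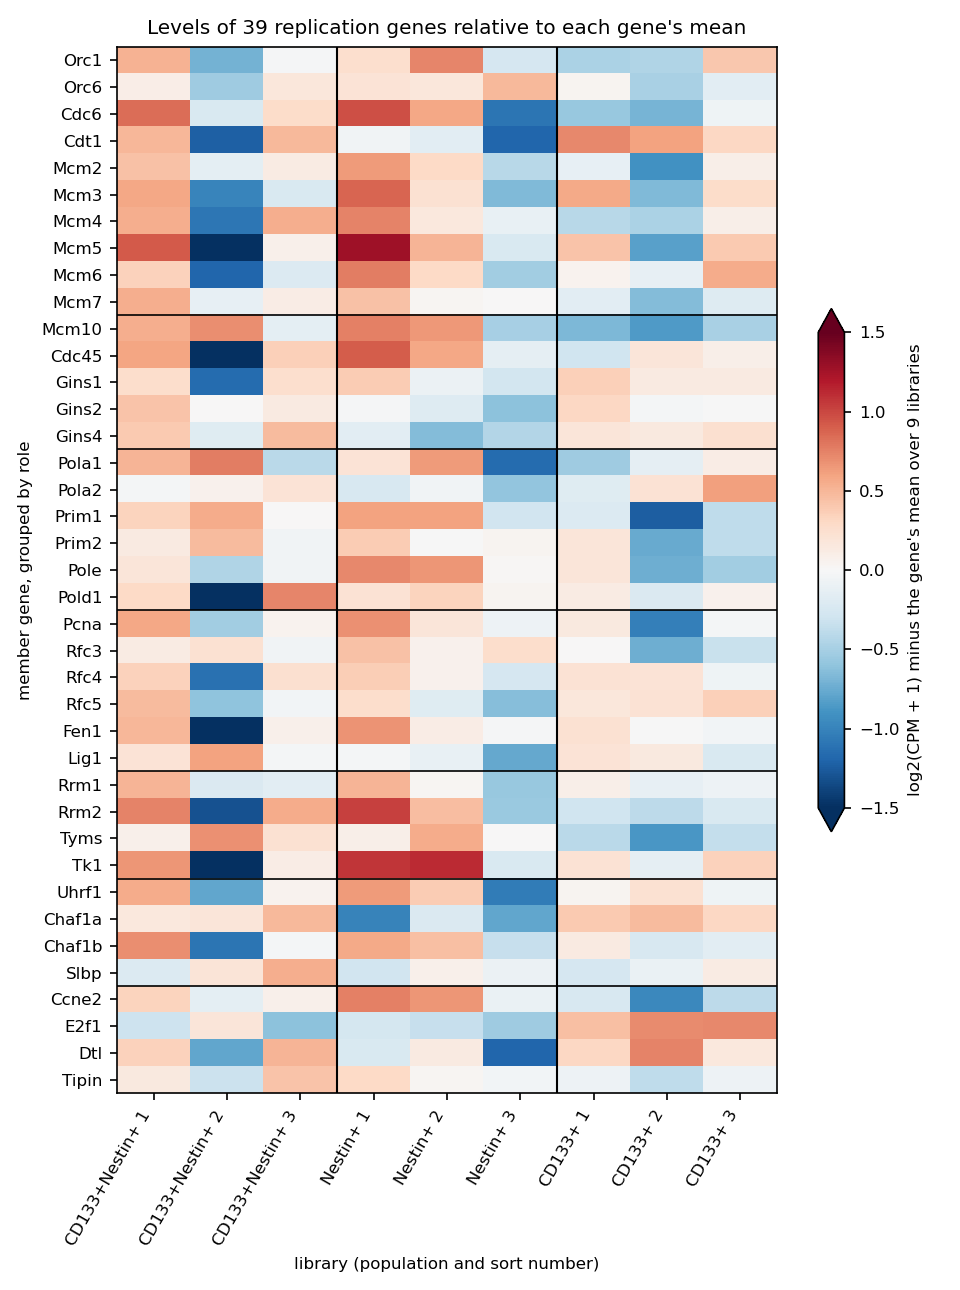
Rows are the 39 measured genes grouped by role (black lines) and columns the 9 libraries; colour is log2(CPM + 1) minus the mean of the gene over the 9 libraries, cut at 1.5 either way. Red in Nestin+ 1 and CD133+Nestin+ 1 and blue in CD133+Nestin+ 2 run through the licensing genes, while E2f1 is deepest red in the 3 CD133+ libraries.

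Per kilobase of the principal transcript, the scale on which genes can be compared, the median over the 9 libraries of the 6 ring subunits was 9.96 CPM per kb for Mcm2, 18.1 for Mcm3, 17.5 for Mcm4, 12.2 for Mcm5, 19.4 for Mcm6 and 23.1 for Mcm7. Their ranges over the libraries overlap, although the medians of Mcm3, Mcm4, Mcm6 and Mcm7 lie above the highest library of Mcm2 (14.7 CPM per kb). Rrm2, the small subunit of ribonucleotide reductase, had the highest median of the 39 at 37.4 CPM per kb, next to Pcna at 35.9 and Slbp at 35.2. Orc1 had the lowest at 0.748 CPM per kb, next to E2f1 at 0.931 and Pole, the catalytic subunit of the leading-strand polymerase, at 1.05. No source used here says how evenly the library kit covered transcripts.

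The genes moved together in part. As a description over 9 libraries that share sort numbers, the correlation (r) of each gene with the mean of the others was above 0.7 for 19 of 39, highest for Rrm2 (0.94) and for Chaf1b (0.94), a subunit of the histone chaperone CAF-1. It was below 0 for E2f1 (-0.35), Slbp (-0.23), Chaf1a (-0.19) and Lig1 (-0.07). Without CD133+Nestin+ number 2 there were again 19 above 0.7, and Lig1 stood at 0.50, so its negative value rested on that library. Pairs among Mcm2 to Mcm7 correlated at 0.36 to 0.91 with a median of 0.71.

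In the fit without a term for the sort number, Nestin+ cells against CD133+ cells gave the only population difference that passed the test. Chaf1a, the large subunit of CAF-1, which places new histones on DNA behind the fork, fell in Nestin+ cells to less than its level in any CD133+ library. No other gene of the 39 passed at an adjusted p under 0.05 in that fit. That is 1 of 39 members called, where 11.9% of all genes tested were called in this comparison (2.45% higher and 9.42% lower), so the share of members was below the background. In all, 9 members had an unadjusted p under 0.05, against 23% of all genes. By direction, 26 members lay above 0 and 13 below, where 48.7% of all genes lay above, with a median log2 change of 0.27, against -0.02 for all genes tested. That median was 0.14 without Nestin+ number 1, 0.16 without CD133+ number 2 and 0.49 without Nestin+ number 3.

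Chaf1a (chromosome 17, 56040439 to 56072289, plus strand, GRCm38) was at 16.5, 16.7 and 20.9 CPM in CD133+Nestin+ libraries, 6.80, 12.5 and 8.11 CPM in Nestin+ libraries, and 19.5, 20.8 and 18.3 CPM in CD133+ libraries. The Nestin+ values lie below all 6 others. Here and below, a lack of overlap between populations of 3 libraries each is a description, because its share over all genes is not given. Its log2 change in Nestin+ versus CD133+ was -1.06 ± 0.28 (SE, n = 3 each, limma, Benjamini-Hochberg adjusted p = 0.0321). With 1 library left out at a time the call held in 4 of 9 fits, with limma adjusted p between 0.0178 and 0.119. It was lost without any 1 CD133+ library, without Nestin+ number 1 or without Nestin+ number 3, and also with median centring (0.0502) and with scaling to the listed genes (0.0707). In CD133+Nestin+ versus Nestin+ its change was 0.94 ± 0.28 (limma adjusted p = 0.122), which did not pass. The authors' deposited table also lists Chaf1a as its only called member, at a false discovery rate of 0.0374 for Nestin+ over CD133+, where 9.07% of its genes were called. Its partner Chaf1b averaged 11.9 ± 7.28 CPM in CD133+Nestin+, 14.3 ± 4.72 in Nestin+ and 10.9 ± 1.65 in CD133+ libraries (SD, n = 3), and these ranges overlap.

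The sort numbers were taken to pair the libraries, from correlations over all genes. With the number as a block 3 members were called of 39, where 19.2% of all genes were. E2f1, an activator of S-phase genes, was then lower in Nestin+ cells, and Ccne2, a cyclin E that drives S-phase entry, was higher. E2f1 was at 2.42, 3.80 and 1.78 CPM in CD133+Nestin+, 2.54, 2.35 and 1.94 in Nestin+ and 4.82, 5.95 and 6.01 in CD133+ libraries. All CD133+ values lie above the 6 values from the populations sorted on CFP. Its log2 change in Nestin+ versus CD133+ was -1.01 ± 0.32, with a limma adjusted p of 0.0643 without the block and 0.0379 with it. Ccne2 was at 13.6, 9.50 and 11.2 CPM in CD133+Nestin+, 18.6, 17.4 and 9.79 in Nestin+ and 8.81, 4.94 and 7.86 in CD133+ libraries, so that both populations sorted on CFP lie above all CD133+ values. For Ccne2 the change was 0.97 ± 0.34, with a limma adjusted p of 0.0929 without the block and 0.0458 with it. Leaving out CD133+Nestin+ number 2 as well, the blocked fit called 12 members against 30.6% of all genes: Ccne2, Mcm10, Mcm7, Pole, Prim1, Rfc3 and Tyms higher, and Cdt1, Chaf1a, Dtl, E2f1 and Gins4 lower.

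**Figure D3:**
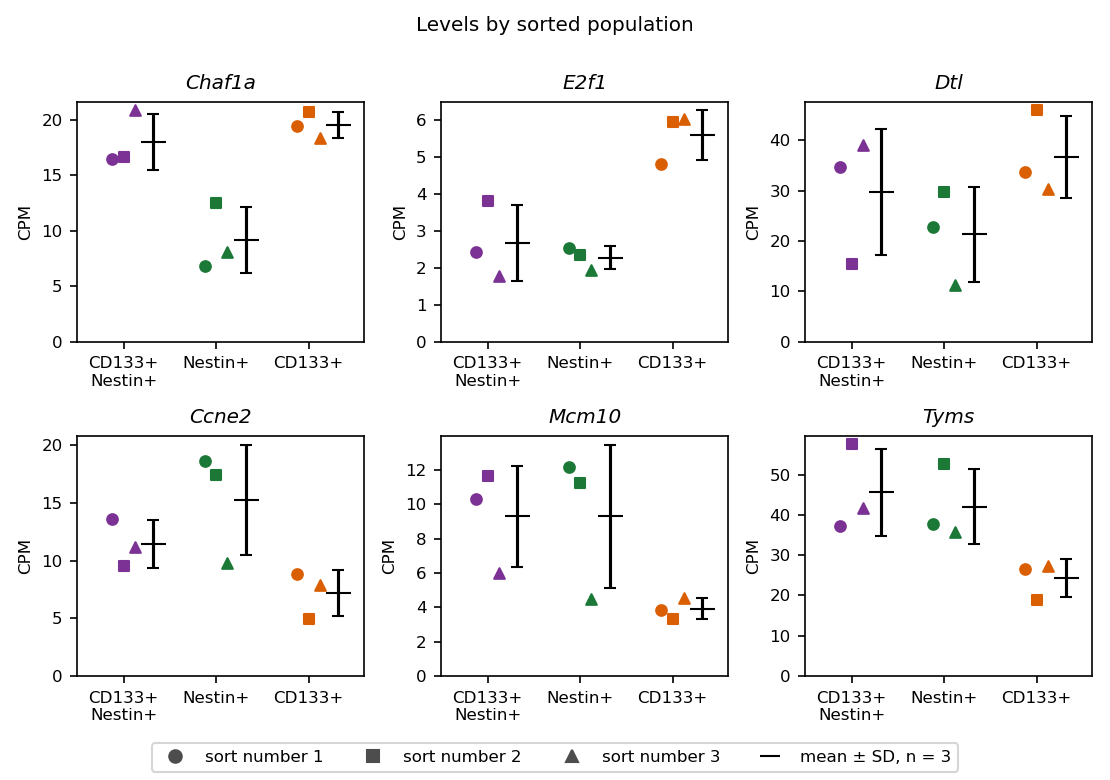
CPM of 6 genes in CD133+Nestin+, Nestin+ and CD133+ libraries, from left to right; marker shape gives the sort number and the black bar the mean ± SD (n = 3). For Chaf1a the Nestin+ libraries lie below the rest, for E2f1 the CD133+ libraries lie above the rest, and for Ccne2 and Tyms the CD133+ libraries lie below the rest.

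By role, the licensing genes lay mostly above 0 in Nestin+ versus CD133+ cells (9 of 10, median log2 change 0.49), and 0 of 10 passed. Cdt1, the loading factor that is destroyed in S phase, was the exception at -1.02 ± 0.48 (limma adjusted p = 0.238), with 18.0, 4.74 and 17.8 CPM in CD133+Nestin+, 11.9, 10.98 and 4.87 in Nestin+ and 21.1, 19.4 and 15.7 in CD133+ libraries. Dtl, the adaptor of the ubiquitin ligase that destroys Cdt1 on DNA, was at 34.8, 15.4 and 38.98 CPM, 22.9, 29.8 and 11.3 CPM, and 33.8, 46.0 and 30.3 CPM in the same order, a change of -0.83 ± 0.41 in Nestin+ versus CD133+ (limma adjusted p = 0.264). For both genes the Nestin+ values lie below all CD133+ values, without passing the test.

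Helicase activation genes were split. Mcm10, which helps start the loaded helicase, was at 10.3, 11.6 and 6.01 CPM in CD133+Nestin+, 12.2, 11.2 and 4.50 in Nestin+ and 3.85, 3.32 and 4.54 in CD133+ libraries. Its change was 0.98 ± 0.40 in Nestin+ versus CD133+ (limma adjusted p = 0.159) and 1.04 ± 0.40 in CD133+Nestin+ versus CD133+ (0.285), and the Nestin+ range overlaps that of CD133+ through its number 3 library. Without that library Mcm10 was the 1 member called in Nestin+ versus CD133+, as higher. Leaving it out removes the overlapping value itself, and the share over all genes in that fit is not given. Gins4, a GINS subunit, was at 25.7, 16.9 and 27.2 CPM in CD133+Nestin+, 17.2, 12.0 and 14.03 in Nestin+ and 22.1, 21.5 and 22.9 in CD133+ libraries. For Gins4 the changes were -0.60 ± 0.27 in Nestin+ versus CD133+ (limma adjusted p = 0.205) and 0.64 ± 0.27 in CD133+Nestin+ versus Nestin+ (0.320).

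Among the polymerases, Prim1, the catalytic primase subunit that makes RNA primers, was at 19.7, 23.1 and 15.4 CPM in CD133+Nestin+, 23.9, 23.9 and 12.5 in Nestin+ and 13.2, 5.98 and 11.5 in CD133+ libraries. Its change in Nestin+ versus CD133+ was 0.92 ± 0.36 (limma adjusted p = 0.147). Pole was at 8.54, 5.17 and 7.11 CPM in CD133+Nestin+, 12.8, 12.3 and 7.49 in Nestin+ and 8.56, 4.04 and 4.84 in CD133+ libraries, a change of 0.83 ± 0.36 (limma adjusted p = 0.190). Pola1, the catalytic subunit of the polymerase that extends primers, ranged over 12.8, 15.5 and 6.30 CPM, 10.1, 14.1 and 3.33 CPM, and 5.65, 7.82 and 9.44 CPM in the same order of populations. Population ranges overlap for Pola1, and its lowest value is Nestin+ number 3.

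Tyms, the thymidylate synthase that makes the DNA-specific nucleotide dTMP, was at 37.4, 57.7 and 41.6 CPM in CD133+Nestin+, 37.8, 52.7 and 35.7 in Nestin+ and 26.5, 18.9 and 27.4 in CD133+ libraries. Every value of both populations sorted on CFP lies above all CD133+ values, again a description without its share over all genes. The changes were 0.77 ± 0.27 in Nestin+ versus CD133+ (limma adjusted p = 0.102) and 0.88 ± 0.27 in CD133+Nestin+ versus CD133+ (0.160), neither past the test. The salvage enzyme Tk1, thymidine kinase, was at 17.9, 0.331 and 11.9 CPM in CD133+Nestin+, 24.3, 25.1 and 9.23 in Nestin+ and 13.0, 9.94 and 14.3 in CD133+ libraries. The value of 0.331 CPM corresponds to about 9.98 reads, in the library that stood apart, where Tyms was at its highest.

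Comparisons of CD133+Nestin+ cells with either single-marker population gave no call among the 39 genes, with or without the sort number as a block, where the blocked fit called 4.81% of all genes against CD133+ cells and 6.09% against Nestin+ cells. The exception was the blocked fit without CD133+Nestin+ number 2, which called Chaf1a and Dtl against Nestin+ cells. For that fit and comparison the share over all genes is not given, so these calls cannot show an excess of members. Against CD133+ cells 0 of 39 were called by limma (background 2.42%), 4 had an unadjusted p under 0.05, against 12.6% of all genes (Mcm10, Prim1 and Tyms above 0, E2f1 below), and the median log2 change was 0.10 against -0.06 for all genes. Against Nestin+ cells 0 of 39 were called (background 3.13%), 2 had an unadjusted p under 0.05, against 13.2% of all genes (Chaf1a and Gins4, both above 0), and the median of -0.04 equalled that of all genes to 2 decimals. The authors' deposited table likewise calls 0 of 39 in both comparisons, where 0.955% and 2.59% of its genes were called. Intervals were wide: for Pcna the 95% interval of the log2 change in CD133+Nestin+ versus CD133+ cells was -0.49 to 1.17, so a miss does not show equal levels. Over the 3 populations together the limma F test called 0 of 39 (background 9.5%, with 6 at an unadjusted p under 0.05 against 21% of all genes), and with the sort number as a block it called Chaf1a alone, where 16.5% of all genes were called.

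**Figure D4:**
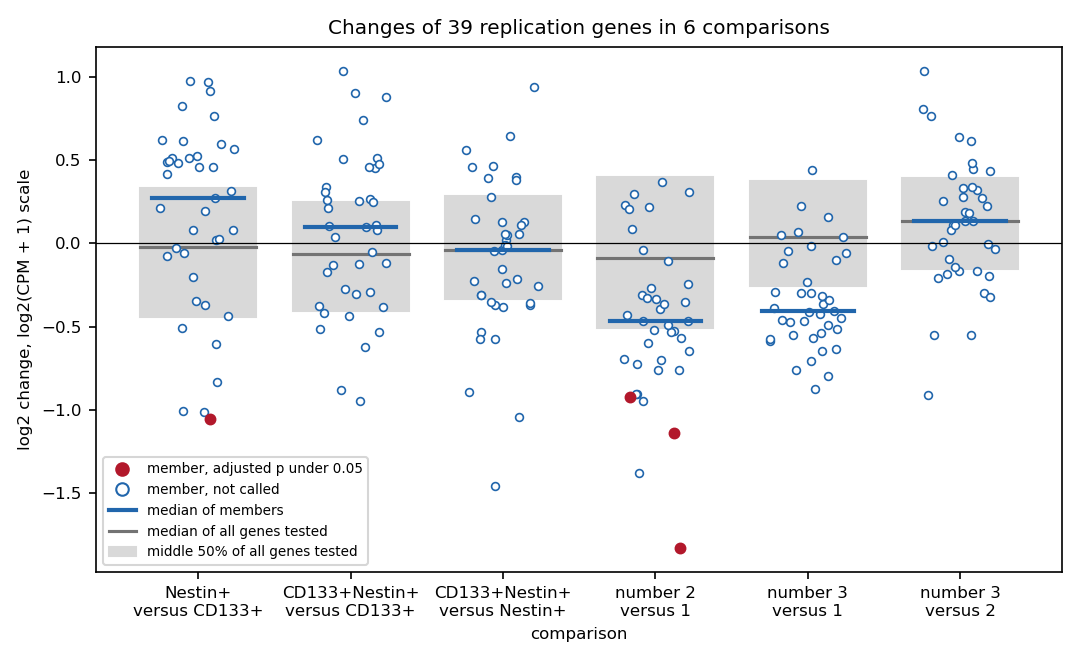
Each circle is the log2 change of 1 of the 39 genes on the log2(CPM + 1) scale in 6 comparisons, filled red where the adjusted p was under 0.05; blue bars are medians of the 39, grey bars and boxes the median and middle 50% of all genes tested. The blue bar stands above the grey one in Nestin+ versus CD133+ (0.27 against -0.02) and below it in number 2 versus 1 (-0.47 against -0.09).

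In sort number 2 against sort number 1, which is also passage 2 against passage 1, most members had lower values. Levels of Mcm3 and Mcm5, both ring subunits, and of Pcna, the sliding clamp, fell in number 2. These were 3 of 39 members called (7.69%), all lower, where 17.3% of all genes were called (8.98% lower). The share called was thus below the background over both directions and near it for lower calls alone. Of the 39, 5 had an unadjusted p under 0.05, against 35.2% of all genes. In direction, 32 of 39 changes were below 0 with a median log2 change of -0.47, against 55.3% of all genes below 0 and a median of -0.09. In 21 of the 39 the number 2 library was below the number 1 library in all 3 populations, as it was for 29.6% of all genes. The listed genes took up less of the library total in number 2 libraries, as given above, and the microglial markers also changed with the number, 9 of 10 called lower in number 2. Of the neural stem and radial glial markers 4 of 10 were called lower (Vim, Fabp7, Slc1a3 and Ptprz1), with a median of -0.65, and all 10 oligodendrocyte precursor markers lay below 0, with a median of -0.74 and 1 called. The part of these shifts in the result was not tested. On values scaled to the sum of the listed genes the median of the members was -0.18, against 0.17 for all genes, and the 3 calls were lost.

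Mcm3 (chromosome 1, 20802968 to 20820312, minus strand) was at 69.7, 23.0 and 39.6 CPM in CD133+Nestin+ libraries 1, 2 and 3, 85.6, 54.8 and 29.1 CPM in Nestin+ libraries, and 69.6, 29.1 and 56.6 CPM in CD133+ libraries. Number 1 was the highest in each population. Its log2 change in number 2 versus 1 was -1.14 ± 0.32 (limma with population as a term, adjusted p = 0.0401), and in number 3 versus 1 it was -0.87 ± 0.32 (0.177).

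Mcm5 (chromosome 8, 75109569 to 75128439, plus strand) was at 59.5, 4.41 and 32.6 CPM in CD133+Nestin+, 76.5, 44.7 and 26.3 in Nestin+ and 42.1, 17.3 and 41.2 in CD133+ libraries. The change in number 2 versus 1 was -1.83 ± 0.54 (limma adjusted p = 0.0457). It leaned on CD133+Nestin+ number 2, without which it was -1.01 (limma adjusted p = 0.0831, range over the 9 fits that left out a library 0.0186 to 0.202).

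Pcna (chromosome 2, 132249162 to 132253314, minus strand) was at 79.4, 36.5 and 54.5 CPM in CD133+Nestin+, 85.3, 60.1 and 49.8 in Nestin+ and 58.6, 25.4 and 51.8 in CD133+ libraries, highest in number 1 of each population. Its change in number 2 versus 1 was -0.92 ± 0.24 (limma adjusted p = 0.0306). All 3 calls were lost together without any 1 of CD133+ number 1, CD133+ number 2, Nestin+ number 1, CD133+Nestin+ number 1 or CD133+Nestin+ number 2, and in the fit without a population term, and that of Mcm5 also without CD133+ number 3. Without CD133+Nestin+ number 2 the median change of the 39 in number 2 versus 1 was -0.23, against -0.01 for all genes, and without Nestin+ number 2 it was -0.71, against -0.11.

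**Figure D5:**
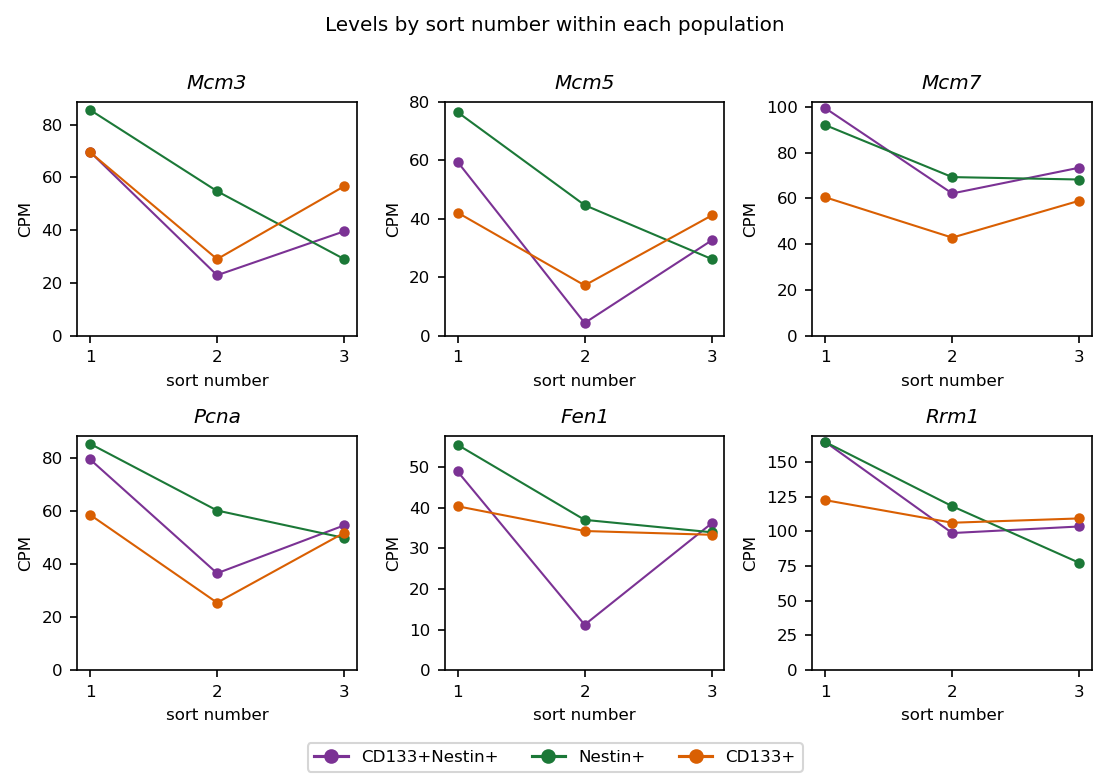
CPM of 6 genes at sort numbers 1, 2 and 3, with 1 line for each population. Mcm3 and Pcna are highest in number 1 in all 3 populations, and the low point of Mcm5 and Fen1 is CD133+Nestin+ number 2.

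Other members pointed the same way without passing. Mcm7, another ring subunit, was at 99.5, 62.2 and 73.5 CPM in CD133+Nestin+, 92.1, 69.3 and 68.3 in Nestin+ and 60.5, 42.9 and 59.0 in CD133+ libraries, a change of -0.52 ± 0.18 in number 2 versus 1 (limma adjusted p = 0.0730). Number 1 was highest in each population here too. Fen1, the nuclease that trims Okazaki fragments, was at 49.0, 11.2 and 36.2 CPM, 55.5, 37.0 and 34.0 CPM, and 40.4, 34.3 and 33.4 CPM in the same order, a change of -0.95 ± 0.35 (0.0866) that was -0.39 without CD133+Nestin+ number 2. Gins1, a GINS subunit, was at 13.5, 4.41 and 13.4 CPM, 14.7, 10.4 and 8.94 CPM, and 14.4, 12.2 and 12.3 CPM, a change of -0.70 ± 0.33 (0.163). Without that library the change of Gins1 was -0.27.

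Rrm1, the large subunit of ribonucleotide reductase, was at 165, 98.8 and 103 CPM in CD133+Nestin+, 164, 118 and 77.3 in Nestin+ and 122, 106 and 109 in CD133+ libraries. Its change was -0.47 ± 0.21 in number 2 versus 1 (limma adjusted p = 0.147) and -0.64 ± 0.21 in number 3 versus 1 (0.140; 0.0487 without CD133+Nestin+ number 2, in a range of 0.0487 to 0.564 over the fits that left out a library). Rrm2 was at 162, 38.6 and 143 CPM, 198, 133 and 65.5 CPM, and 78.5, 73.4 and 82.1 CPM in the same order, and its values in CD133+ libraries lie close together. The change of Rrm2 in number 2 versus 1 was -0.90 ± 0.46 (limma adjusted p = 0.186), and -0.24 without CD133+Nestin+ number 2. Chaf1b was at 19.4, 4.90 and 11.3 CPM in CD133+Nestin+, 17.7, 16.3 and 8.91 in Nestin+ and 12.8, 9.70 and 10.2 in CD133+ libraries, a change of -0.76 ± 0.37 (0.169), and -0.26 without that library.

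Slbp, which binds the stem-loop of histone messenger RNAs and is needed for their processing, had its values in the other direction. It was at 62.0, 81.8 and 105 CPM in CD133+Nestin+, 58.4, 75.6 and 67.1 in Nestin+ and 59.9, 67.0 and 78.2 in CD133+ libraries, so that number 1 was the lowest of each population. The changes were 0.31 ± 0.19 in number 2 versus 1 (limma adjusted p = 0.264) and 0.44 ± 0.19 in number 3 versus 1 (0.225). On values scaled to the listed genes Slbp was the 1 member called in number 2 versus 1, as higher. In that run 2772 of the 16143 genes tested were called, 2212 of them higher. Lig1, the ligase that seals Okazaki fragments, was at 49.2, 65.2 and 41.9 CPM in CD133+Nestin+, 41.9, 39.5 and 24.7 in Nestin+ and 49.4, 47.5 and 36.4 in CD133+ libraries, lowest in number 3 of each population, with a change of -0.55 ± 0.19 in number 3 versus 2 (limma adjusted p = 0.339).

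Number 3 against number 1 gave 0 calls of 39 by limma (background 3.08%), and 4 at an unadjusted p under 0.05, against 19.8% of all genes (Mcm3, Rrm1 and Lig1 below 0, Slbp above). Changes were below 0 in 33 of 39, against 46.3% of all genes, with a median of -0.40 against 0.04. In 18 of the 39, number 3 was below number 1 in all 3 populations, as it was for 24.8% of all genes. Without Nestin+ number 3 the median of the 39 was -0.09, and without CD133+Nestin+ number 1 it was -0.24. Number 3 against number 2 called 0 of 39 by limma, as it called 0 of all genes (0%), with 2 members (Pola1 and Lig1) and 2215 genes (13.7%) at an unadjusted p under 0.05, and the medians were 0.13 in both. Comparisons that share the number 1 libraries are not independent of each other. The F test over the 3 sort numbers called 0 of 39 (background 8.77%, with 6 at an unadjusted p under 0.05 against 30.6% of all genes).

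Members with and without an E2F match had similar medians in number 2 versus 1: the median log2 change was -0.52 over the 13 measured genes with a match and -0.48 over the 18 with a window and none. In Nestin+ versus CD133+ cells the medians were 0.08 and 0.39. These are descriptions, and the difference was not tested.

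Beyond the 39, a list of 51 other replication genes also held calls at shares below those over all genes (11.9% in Nestin+ versus CD133+ and 17.3% in number 2 versus 1). In Nestin+ versus CD133+ cells 1 was called, Fanci, a Fanconi anaemia protein that acts at stalled forks, at 15.3, 8.01 and 8.83 CPM in CD133+Nestin+, 10.2, 11.5 and 4.88 in Nestin+ and 30.9, 46.1 and 24.9 in CD133+ libraries (log2 change -1.86 ± 0.38, limma adjusted p = 0.00867). With the sort number as a block 3 of the 51 were called, where 19.2% of all genes were, with Rpa2 and Dut higher and Fanci lower. In the blocked fit Fanci was also called lower in CD133+Nestin+ versus CD133+ (-1.58, adjusted p = 0.0184), where 4.81% of all genes were called. In number 2 versus 1 the kinase Cdc7, which triggers helicase activation, was higher (1.33 ± 0.35, adjusted p = 0.0326) and Rpa2, a subunit of the protein that coats single-stranded DNA, was lower (-1.04 ± 0.23, 0.0175). The 16 genes of the E2F and RB families gave 1 call in Nestin+ versus CD133+ cells, the repressor E2f7, at 11.6, 19.9 and 11.4 CPM in CD133+Nestin+, 6.32, 7.33 and 4.56 in Nestin+ and 28.9, 48.4 and 20.3 in CD133+ libraries (-2.18 ± 0.37, limma adjusted p = 0.00283). Like E2f1, E2f7 was highest in the CD133+ libraries. The blocked fit called 2 of the 16 in Nestin+ versus CD133+, where it called 19.2% of all genes, with E2f2 higher and E2f7 lower. It also called E2f7 lower in CD133+Nestin+ versus CD133+ (-1.09, adjusted p = 0.0340), and in CD133+Nestin+ versus Nestin+ it called E2f7 higher (1.09, 0.0281) and E2f2 lower. Over all genes it called 4.81% and 6.09% in these 2 comparisons. Of the 16, Tfdp2 alone was called in number 2 versus 1, as higher (0.96 ± 0.26, limma adjusted p = 0.0366), against 17.3% of all genes.

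Genes of G2 and mitosis lay lower in Nestin+ than in CD133+ libraries by their median. The 23 measured markers summed to 943, 365 and 745 CPM in CD133+Nestin+, 735, 702 and 315 in Nestin+ and 747, 1451 and 961 in CD133+ libraries. Their median log2 change in Nestin+ versus CD133+ was -0.39, where that of the 39 replication genes was 0.27, and 2 fell, Ccnb2 (-1.35 ± 0.33, limma adjusted p = 0.0210) and Cdc20 (-1.77 ± 0.28, 0.00175). Those 2 of 23 stand beside 11.9% of all genes called in this comparison (9.42% lower). With the block 4 of 23 were called, all lower, where 19.2% of all genes were: Top2a (adjusted p = 0.0254) and Cdk1 (0.0342) joined them. Ccnb2 is a mitotic cyclin and Cdc20 an activator of the anaphase-promoting complex. The proliferation marker Mki67 was at 37.0, 26.4 and 28.3 CPM in CD133+Nestin+, 42.6, 50.3 and 14.5 in Nestin+ and 14.2, 11.5 and 22.2 in CD133+ libraries. CD133+ number 2 thus held the highest mitotic sum of the 9 libraries and the lowest Mki67, and it was the lowest library for 11 of the 39 replication genes (28.2%), against 13.1% of all genes.

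The 9 genes of CDK inhibitors and quiescence were led by Cdkn1a, which encodes the inhibitor p21 that binds both cyclin kinases and Pcna. Cdkn1a was at 57.0, 50.9 and 45.7 CPM in CD133+Nestin+, 14.2, 15.1 and 29.4 in Nestin+ and 109, 154 and 120 in CD133+ libraries, with no overlap between any 2 populations. It fell in Nestin+ versus CD133+ (-2.71 ± 0.29, limma adjusted p = 0.000261) and in CD133+Nestin+ versus CD133+ (-1.29 ± 0.29, 0.0480), and was higher in CD133+Nestin+ versus Nestin+ (1.41 ± 0.29, 0.0268). Cdkn2b, an inhibitor of the G1 kinases, also fell in Nestin+ versus CD133+ cells (-1.76 ± 0.40, 0.0152). The inhibitor Cdkn1b lay in the other direction there (1.09 ± 0.52, limma adjusted p = 0.243) and was called higher with the block (0.0320), which made 3 of 9 called with it and 2 without. Over all genes 19.2% were called with the block and 11.9% without. In number 3 versus 1 Cdkn1b (1.39 ± 0.30, limma adjusted p = 0.0445) and the antiproliferative gene Btg2 (2.04 ± 0.38, 0.0265) were called higher, where 3.08% of all genes were called. In number 2 versus 1 neither passed (Cdkn1b 0.74 ± 0.30, limma adjusted p = 0.115, and Btg2 0.61 ± 0.38, 0.284). Btg2 was at 146.1, 294.5 and 802.7 CPM in CD133+Nestin+, 166.1, 261.1 and 309.8 in Nestin+ and 161.5, 180.8 and 1107 in CD133+ libraries. A link of Cdkn1b or Btg2 with the replication genes was not tested. Marker lists of other cells also differ between Nestin+ and CD133+ libraries. The 16 ependymal and motile cilia markers, 15 of them called lower in Nestin+, summed to 2073 to 2424 CPM in CD133+Nestin+, 448 to 527 in Nestin+ and 2020 to 4102 in CD133+ libraries. Like Chaf1a, that sum was lowest in the 3 Nestin+ libraries. The 10 oligodendrocyte precursor markers, 8 called higher in Nestin+, summed to 386 to 1012, 1407 to 1891 and 122 to 297 CPM in the same order. Sums over 6 mural and fibroblast markers were 97.8 to 167, 63.9 to 96.1 and 724 to 1453 CPM, and over 5 erythroid markers 60.6 to 118, 24.4 to 344 and 783 to 1537 CPM. These 4 lists too hold only markers that passed the filter, and none of those was at 0 in all 3 libraries of a population. The part of these lists and of the microglial and endothelial markers in the differences of Chaf1a, E2f1, E2f7, Fanci, Cdkn1a and the mitotic genes was not tested.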

How the data were processed

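Total RNA from 9 libraries (3 per population) was sequenced on a HiSeq instrument, per the labels. Per the submitters' processing notes, limma, STAR 2.5.3a, Partek 8.0, bcl2fastq and the build mm10 were used, in roles that are not stated. No source used here gives the counting rules or the use of strand, so overlapping genes and close paralogs are uncertain. The deposited values were taken as CPM made by the authors, a unit inferred from the values. Of the low values in a library, 28.9% to 52.7% lay within 0.02 reads of a whole multiple of a fitted step. The others did not, so read numbers are approximate and no count test was run. The authors' second deposited table holds p-values, step-up false discovery rates and ratios of group means, per the file headers. Its other columns, a signed fold score and a signal (sums of the deposited values), were not used.

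The log2(CPM + 1) of 16143 genes (minimum 1 CPM, in 3 libraries or more) was fitted in limma 3.58.1 (R 4.3.3) with trended, robust variances: 3 population means (6 residual degrees of freedom, median prior 4.93), and population plus sort number for the number comparisons (4, median prior 5.52). All p-values were adjusted over all genes tested by the Benjamini-Hochberg method at 0.05. Errors in levels are SD, those of log2 changes SE. The precision rests on 3 libraries a group; a floor of 3 reads, for counting error alone, lay at 0.0857 to 0.103 CPM.

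Over all genes tested, deviations from population means correlated at 0.204 to 0.73 in all 9 same-numbered pairs of libraries, and at -0.527 to 0.314 in the 18 other pairs. The numbers were therefore taken, from the data, to pair the libraries, and counts from a fit blocked on the number are given beside the unblocked ones in the population comparisons where they differ. Over the members alone the same-numbered pairs correlated at -0.191 to 0.674 and the other pairs at -0.527 to 0.286. The pairing thus rests on all genes and not on the members.

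Gene positions and transcript lengths are from GENCODE M21 (GRCm38, the mm10 build), and promoters from RefSeq (GRCm38.p6). Named members are every member called and the 3 of smallest p in each role; Cdt1, Tk1 and the promoter examples were chosen after their values were seen. The members and lists were chosen with earlier results of these data known. The procedure was tested on simulated data. Plots used Python 3.11.15 and matplotlib 3.10.9.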

Additional observations from a re-analysis of the deposited data

How the results depend on the processing

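Counts of called members depended on the processing, and no named change reversed under any alternative run. Apart from shares given above, the counts in this section stand without the share over all genes in the same run. They cannot show an excess or a lack of members. With the replicate block (the paired fit) Nestin+ versus CD133+ gave 3 calls and the F test over populations 1, against 1 and 0 without it; the block changed no other call on members in the population comparisons. The blocked fit without CD133+Nestin+ replicate 2, which fits 1 library fewer and takes up the sort number, gave 12 calls in Nestin+ versus CD133+, near the share over all genes given above. It gave 2 calls in CD133+Nestin+ versus Nestin+ (Chaf1a and Dtl) and 6 in the F test over populations. Nestin+ versus CD133+ gave 0 calls with median centring and with values scaled to the listed genes, and 2 (Chaf1a and E2f1) with no trend or robust prior and with the 6 libraries alone. In number 2 versus 1 the count was 0 with no population term, quantile normalization, and no trend or robust prior. It was 2 with a pseudocount of 0.1, which ended the call of Mcm5 (limma adjusted p = 0.0582), 1 with no filter (Pcna) and 1 with scaling to the listed genes (Slbp, higher). The cause was not tested.

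Leaving out 1 library at a time gave 0 to 3 calls in Nestin+ versus CD133+, 0 to 2 in the F test over populations, 0 to 3 in number 2 versus 1, 0 to 1 in number 3 versus 1, 0 to 3 in the F test over sort numbers, and 0 in the remaining comparisons. The 3 calls in Nestin+ versus CD133+ came without CD133+Nestin+ replicate 2 (Chaf1a, E2f1 and Tyms), and 0 came without CD133+ replicate 1, 2 or 3 or Nestin+ replicate 1.

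Scaling moved the median log2 change of all genes. In Nestin+ versus CD133+ it shifted by 0.13 with median centring and 0.15 with quantile normalization, and the share of higher calls among all genes was 31.1% and 33.7%, against 20.6% as deposited. In number 2 versus 1 scaling to the listed genes, an alternative chosen after seeing the data, shifted it by 0.26, and higher calls were 79.8% against 48.2%. Relative to all genes the members' median in number 2 versus 1 was -0.38 as deposited and -0.35 so scaled. With 3 libraries a group, changes whose interval spans 0 could not be resolved.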
